A study of Homo sapiens with 16 samples.

Results

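The 10 transcripts described here encode protein subunits of the mitochondrial ribosome: MRPL9, MRPL19, MRPL20, MRPL24, MRPL37 and MRPL44 of the large subunit, and MRPS5, MRPS9, MRPS14 and MRPS15 of the small subunit. They were chosen by symbol, with earlier results of these data known. All 10 were listed by the study and present in both assays. All 10 also passed the filter on low counts, among 10970 tested transcripts of 19044 joined. HEK293T cells, an established human embryonic kidney line, were left untreated or treated for 1 hr with tunicamycin (Tm, 1 µg/ml), with Tm and ISRIB (200 nM), or with ISRIB alone (200 nM). Ribosome-protected fragments (RPFs) were sequenced by Ribo-Seq and mRNA by mRNA-Seq from parts of the same lysates, with 2 replicates (a and b) per treatment and 16 libraries in all. Cycloheximide was added to every culture shortly before lysis, the untreated one included. No genetic change separates the groups, all of which come from the same cell line, and its identity was not checked against markers.

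The mitochondrial ribosome translates the few proteins that the mitochondrial genome encodes, all of them core subunits of the respiratory chain and ATP synthase. Its own proteins are encoded in the nucleus, translated by cytosolic ribosomes and imported into mitochondria, so footprints on their mRNAs report cytosolic translation. MRPL9, MRPL19, MRPL20, MRPL24, MRPS5, MRPS9, MRPS14 and MRPS15 have bacterial counterparts, whereas MRPL37 and MRPL44 are additions of the mitochondrial ribosome. Tm blocks N-linked glycosylation and causes ER stress, which leads through the kinase PERK to phosphorylation of eIF2α and to less translation initiation. ISRIB renders cells insensitive to eIF2α phosphorylation.

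The libraries held between 3001612 and 11469150 counts in Ribo-Seq and between 8466193 and 24499266 in mRNA-Seq on the joined transcripts. Members had between 151 and 2503 RPF counts and between 260 and 6780 mRNA counts in a library. The RPF level of ATF4, the best known transcript translated more under eIF2α phosphorylation, was 81.2 and 61.6 CPM (a count divided by the effective library total that edgeR estimates) in the untreated replicates, 453 and 460 in Tm, and 53.3 and 66.0 in Tm + ISRIB, so that both Tm libraries were far above all others. The 2 ISRIB replicates differed more from each other in mRNA-Seq than any other pair, with a chi-square over its degrees of freedom of 12.1 against 1.63 to 5.48 in the other 7 pairs, so member counts that rest on ISRIB mRNA are also given without each of them. CPM values are shares of a library, and amounts per cell were not measured.

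The annotated start regions of the members are shown first, because translation of these mRNAs is what was compared. Of the 10 members, 4 have the letters ATGGCGGC at the start codon, read on the transcript strand with the ATG as the start codon (GENCODE v29, GRCh38), against 3.97% of the 1738 named tested transcripts that could be matched and 2.76% of 19459 principal transcripts, and 1 of 10 further mitochondrial ribosome proteins. The 8 letters are not known to have been chosen independently of the members' own sequences, so these shares are descriptive and were not tested. In the following lines, capitals mark these 8 letters where they are present and the ATG alone where they are not, with 12 bases on either side of the ATG. The first 4 are the members that carry the letters, and the last 4 are those whose RPFs changed under Tm.
MRPL9: gtgcctgtgaacATGGCGGCgcccgtt
MRPL19: gagctagctggcATGGCGGCctgcatt
MRPS9: cccacagctaacATGGCGGCgccctgt
MRPS14: gtagcggacaacATGGCGGCcttcatg
MRPL37: tatcagatcggtATGgcattggcgtcc
MRPS15: ttagaggtcaccATGctgagggtcgcg
MRPS5: tcggactccagcATGgcgaccgcggtg
MRPL44: ttctctcgtgcaATGgcgtccgggctg

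The annotated 5′ UTRs of the 10 members ran from 17 to 209 nt with a median of 90.5 nt, against a median of 186 nt for the named tested transcripts. MRPS14 has 17 nt and MRPL19 has 25 nt before the ATG. No upstream ATG was present in the 5′ UTR of 6 members, a share of 60.0% against 50.1% of the named tested transcripts, while MRPS15 has 2 and MRPL37, MRPL20 and MRPL24 have 1 each. From the RefSeq transcript starts (GRCh38.p14), the ATG lies 17 nt downstream in MRPL9 and MRPS14, 24 nt in MRPS9, 25 nt in MRPL19 and 10 nt in MRPL44, and 17 nt in MRPS5 from the nearer of its 2 listed starts. Only a short genomic stretch after each start was searched, so a distant or spliced ATG could not be found. It was not found for MRPL20, MRPL24, MRPL37 and MRPS15. The GENCODE 5′ UTRs are longer for MRPL9 (85 nt), MRPS9 (110 nt), MRPL44 (69 nt) and MRPS5 (209 nt), and the annotations were not reconciled. MRPL44 was the only member whose RefSeq start reads C followed by 4 pyrimidines, the beginning of the 5′ terminal oligopyrimidine (TOP) pattern known from mRNAs of the cytosolic translation machinery. The GENCODE transcript of MRPL44 starts further upstream, at 223957404 against 223957463 in RefSeq, and by that annotation these bases are not its 5′ end. The RefSeq start of MRPL44 and the bases around it are gttttCTCTCgtgcaatggcgtccgggctg, with the first 5 transcribed bases in capitals. That pattern was present at a listed start of 5.14% of all genes and of 8 of 11 cytosolic ribosomal protein genes that could be matched. The 4 members whose RPFs changed lie on the plus strand of chromosome 1, 54200167 to 54218383 (MRPL37), the minus strand of chromosome 1, 36455718 to 36464437 (MRPS15), the minus strand of chromosome 2, 95087207 to 95122000 (MRPS5), and the plus strand of chromosome 2, 223957404 to 223967714 (MRPL44), as GENCODE v29 gives them on GRCh38.

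In untreated cells the members were abundant and unequal. Per counted kilobase (kb), their RPF levels ranged from 63.3 to 549.8 CPM with a median of 143.6, against a median of 20.8 over all tested transcripts. Their mRNA levels ranged from 61.5 to 242.9 CPM per kb with a median of 129.5, against 22.8 over all. The RPF range was 8.68-fold and the mRNA range 3.95-fold among proteins that each enter the mitochondrial ribosome.

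MRPL20 had the highest level in both assays, with 549.8 ± 15.2 CPM per kb of RPFs and 242.9 ± 12.4 of mRNA (SD, n = 2 here and in the rest of the paragraph). MRPL37 followed with 187.3 ± 3.70 of RPFs and 190.7 ± 2.82 of mRNA. MRPL24 (163.8 ± 6.72) and MRPS15 (161.1 ± 0.443) were next in RPFs and did not differ beyond their spread. MRPS14 (144.9 ± 5.44), MRPL19 (142.3 ± 13.4), MRPL9 (130.7 ± 13.3) and MRPL44 (123.01 ± 5.97) formed a run in which neighbours overlapped. MRPS9 (64.8 ± 1.45) and MRPS5 (63.3 ± 3.57) had the lowest RPF levels and also overlapped. MRPL44 had the lowest mRNA level of the 10, 61.5 ± 0.118 CPM per kb, below MRPS5 (80.6 ± 1.62) and MRPS9 (84.95 ± 1.32).

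Translational efficiency, the RPF CPM over the mRNA CPM of the same lysate, ranged from 0.763 to 2.27 among the members in untreated cells, with a median of 0.992 against 1.03 over all tested transcripts. A value of 1 means that a transcript took the same share of both libraries. MRPL20 had 2.39 and 2.14 in the 2 lysates, and MRPL44 had 1.93 and 2.07. These were the only members above 2 in any untreated lysate, at the 83.1 and 79.5 percentile of all tested transcripts. MRPL24 (1.35 and 1.25) and MRPS14 (1.18 and 1.18) came next and did not overlap. MRPS15 (0.933 and 1.07), MRPL37 (1.01 and 0.959) and MRPL9 (0.948 and 1.02) lay around 1 and overlapped. The lowest efficiencies were those of MRPL19 (0.779 and 0.909), MRPS5 (0.765 and 0.806) and MRPS9 (0.767 and 0.759), with overlap between neighbours.

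**Figure D1:**
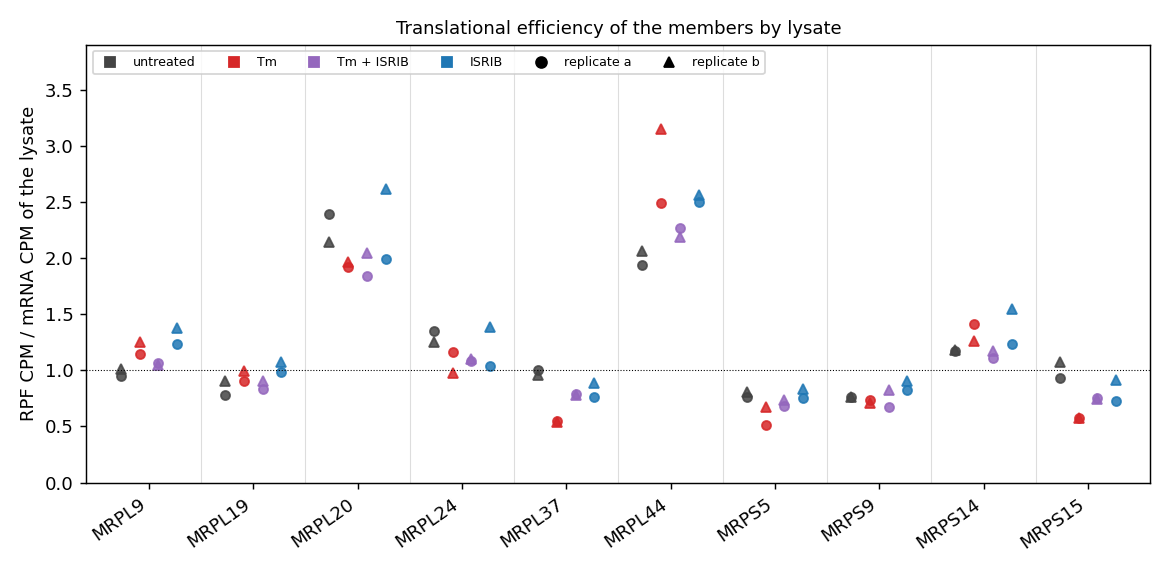
Translational efficiency (RPF CPM over mRNA CPM of the same lysate, linear axis) of the 10 members in the 4 treatments; each point is 1 lysate, circles replicate a and triangles replicate b, and the dotted line marks a ratio of 1. MRPL20 and MRPL44 lie above the other members in all 4 treatments, and the Tm lysates of MRPL37 and MRPS15 lie between 0.542 and 0.576, below all their other lysates.

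Tm against untreated asks which mRNAs are translated more or less under ER stress. The RPF levels of MRPL37, MRPS15 and MRPS5 fell and that of MRPL44 rose, so that 1 member went up and 3 went down at an FDR of 0.1, and 6 did not pass. Among all tested transcripts 6.16% went up and 7.53% went down, 13.7% together. The changes of the 10 members ran from −0.48 to 0.34 on the log2 scale with a median of −0.10, against a median of −0.01 over all. They did not move as one group.

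The RPF level of MRPL37, a large-subunit protein, was 230.2 and 224 CPM in untreated cells and 164 and 161 CPM in Tm. Both Tm libraries were below both untreated ones. The change was −0.48 ± 0.08 log2 (SE from edgeR, as throughout), a fold of 0.715, with an adjusted p of 8.68e-05. In the same lysates the MRPL37 mRNA level was 229 and 233 CPM untreated and 299 and 297 CPM in Tm, a rise of 0.37 ± 0.07 (adjusted p = 0.0313). RPFs and mRNA of this transcript thus moved in opposite directions, and its efficiency went from 1.01 and 0.959 to 0.547 and 0.542. The efficiency change was −0.85 ± 0.10 (fold 0.554, adjusted p = 4.66e-05), the largest in size of the 10 members.

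MRPS15, a small-subunit protein that binds the ribosomal RNA directly in bacteria, followed the same course. Its RPF level was 115.3 and 114.8 CPM in untreated cells and 86.3 and 88.8 CPM in Tm, without overlap, a change of −0.40 ± 0.09 (fold 0.760, adjusted p = 0.00467). Its mRNA level was 124 and 107 CPM untreated and 150.0 and 155 CPM in Tm, a rise of 0.40 ± 0.09 (adjusted p = 0.0418). Its efficiency fell from 0.933 and 1.07 to 0.576 and 0.572, by 0.80 ± 0.13 on the log2 scale (fold 0.575, adjusted p = 0.000486). The RPF and efficiency calls of MRPL37 and MRPS15 in Tm held in every alternative tried, with adjusted p of at most 0.0713.

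MRPS5, the small-subunit counterpart of a bacterial protein at the mRNA entry, had RPF levels of 74.98 and 81.2 CPM in untreated cells and 55.1 and 65.5 CPM in Tm. The groups did not overlap, but the Tm replicates were further apart than those of MRPL37. The change was −0.39 ± 0.10 (fold 0.764, adjusted p = 0.0184), and without Tm replicate a it was −0.26 with an adjusted p of 0.312. MRPS5 mRNA was 98.0 and 100.8 CPM untreated and 108 and 97.6 CPM in Tm, which overlap (0.05 ± 0.09, adjusted p = 0.798). The efficiency change of MRPS5 was −0.43 ± 0.14 (adjusted p = 0.0574), with 0.765 and 0.806 untreated against 0.511 and 0.671 in Tm. That call was lost with total counts, with DESeq2, and without Tm replicate a or either untreated replicate, with an adjusted p of up to 0.531.

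MRPL44, a large-subunit protein related to ribonuclease III, was the member whose RPFs rose. Its RPF level was 111.5 and 119.5 CPM in untreated cells and 139 and 154 CPM in Tm, without overlap, a change of 0.34 ± 0.09 (fold 1.26, adjusted p = 0.0121). Its mRNA level was 57.7 and 57.8 CPM untreated and 55.95 and 48.9 CPM in Tm (−0.14 ± 0.09, adjusted p = 0.322). The efficiency rose from 1.93 and 2.07 to 2.49 and 3.15, by 0.48 ± 0.12 (fold 1.396, adjusted p = 0.0151). Without Tm replicate b, the library in which the level was higher, the RPF change was 0.26 (adjusted p = 0.177) and the efficiency change 0.31 (adjusted p = 0.267).

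The other 6 members did not pass the test in RPFs under Tm. MRPL20 had 219 and 210.2 CPM untreated against 190.5 and 186 in Tm (−0.19 ± 0.08, adjusted p = 0.139), and MRPL24 had 94.0 and 99.6 against 90.7 and 82.0 (−0.16 ± 0.10, adjusted p = 0.350). Neither overlapped between the groups, but the share of all tested transcripts without overlap was not counted, so no change is read from this. The 4 members with ATGGCGGC at the start codon had the RPF changes closest to 0, with MRPL9 at −0.03 ± 0.10, MRPL19 at 0.01 ± 0.09, MRPS9 at −0.01 ± 0.10 and MRPS14 at 0.06 ± 0.11, a coincidence seen after the values and not tested. The intervals of 2 SE around these 4 changes reached from −0.23 to 0.28, so changes of the size of MRPL37 lay outside them. Among the other 65 named tested transcripts with these letters at the start codon, 4 rose and 2 fell in RPFs, 9.23% together, with a median of 0.03, against 14.3% and a median of −0.01 over the 1738 named ones.

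In mRNA under Tm, MRPL37 and MRPS15 rose, MRPL9 fell and 7 members did not pass, against 6.74% up and 4.41% down, 11.1% together, over all. MRPL9 mRNA was 95.2 and 103 CPM untreated and 79.3 and 80.4 CPM in Tm, without overlap, a change of −0.31 ± 0.07 (fold 0.807, adjusted p = 0.0482). Its RPF level overlapped between the groups, with 90.3 and 104 CPM untreated and 91.0 and 100.5 CPM in Tm. The efficiency of MRPL9 was 0.948 and 1.02 against 1.15 and 1.25 (0.28 ± 0.13, adjusted p = 0.174, and 0.38 with an adjusted p of 0.0472 when libraries were scaled by their totals alone). Leaving out either Tm replicate or untreated replicate b ended all 3 mRNA calls, with adjusted p of up to 0.304, and in those fits 0% of all transcripts passed. Without untreated replicate a the calls of MRPL37 and MRPL9 ended too, and 1.81% of all transcripts passed. Over all alternatives the mRNA changes ran from 0.32 to 0.38 for MRPL37, from 0.31 to 0.51 for MRPS15 and from −0.36 to −0.25 for MRPL9. In efficiency, 1 member rose and 3 fell, against 6.87% up and 9.15% down, 16% together, over all.

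**Figure D2:**
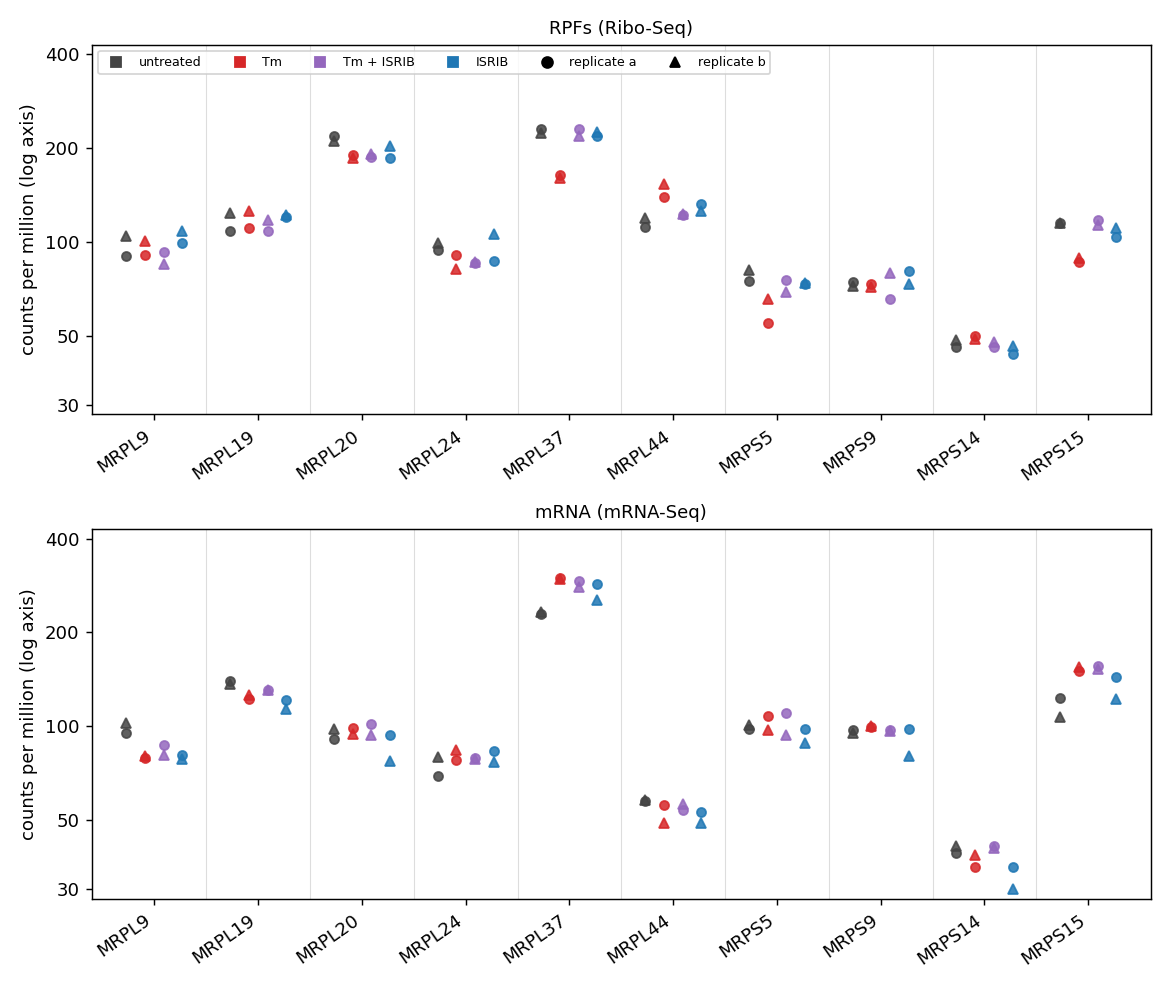
RPF (upper) and mRNA (lower) levels of the 10 members in CPM on a log axis; each point is 1 library, coloured by treatment, circles replicate a and triangles replicate b. In RPFs the Tm points of MRPL37, MRPS15 and MRPS5 lie below all other treatments, and those of MRPL44 lie above, while in mRNA the treated points of MRPL37 lie above and those of MRPL9 below the untreated ones.

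Tm + ISRIB against Tm asks which of these changes are undone when ISRIB is present. RPFs of MRPL37 and MRPS15 rose and those of MRPL44 fell, 3 of 10 members, against 9.44% up and 8.10% down, 17.5% together, over all. The comparison uses the same Tm libraries as that of Tm with untreated, so the values are set side by side and their opposite signs are not independent. The MRPL37 RPF level was 231 and 218 CPM in Tm + ISRIB, against 164 and 161 in Tm (0.47 ± 0.08, fold 1.38, adjusted p = 0.000147). That of MRPS15 was 118 and 114 against 86.3 and 88.8 (0.40 ± 0.09, fold 1.32, adjusted p = 0.00378). MRPL44 had 121.9 and 122.9 CPM against 139 and 154 (−0.25 ± 0.09, fold 0.838, adjusted p = 0.0547), a call that ended without Tm replicate b, without either Tm + ISRIB replicate, and with DESeq2, with adjusted p of up to 0.356. MRPS5 had 75.7 and 68.98 CPM against 55.1 and 65.5, without overlap (0.27 ± 0.11, adjusted p = 0.1001).

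In mRNA, no member and no other transcript differed between Tm + ISRIB and Tm with edgeR. At an unadjusted p under 0.05 there were 0 members and 192 of all transcripts, and DESeq2 also called 0 of both. The mRNA changes of the members between these treatments ran from −0.06 to 0.14. Efficiency of MRPL37 (0.53 ± 0.10, adjusted p = 0.00919) and MRPS15 (0.39 ± 0.13, adjusted p = 0.0976) rose, 2 of 10 members, against 3.56% up and 2.37% down, 5.93% together, over all. The MRPL37 call ended without either Tm replicate and without Tm + ISRIB replicate a, with an adjusted p of up to 0.190. The MRPS15 call ended in 8 of 11 alternatives, among them each fit without 1 of the Tm or Tm + ISRIB replicates, with an adjusted p of 0.133 when each lysate was a block in the fit. Its change ran from 0.34 to 0.40 over all 11 alternatives and that of MRPL37 from 0.48 to 0.53, while the fits without 1 of these replicates called 0.412% to 1.70% of all transcripts.

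In Tm + ISRIB against untreated, 0 members passed in RPFs by edgeR or DESeq2, against 2.38% of all transcripts with edgeR. An unadjusted p under 0.05 was seen for 1 member and for 13.2% of all. The RPF change of MRPL37 was −0.02 ± 0.07 and that of MRPS15 was 0.01 ± 0.08. The interval of 2 SE ran from −0.16 to 0.13 for MRPL37 and from −0.15 to 0.17 for MRPS15. The changes of all 10 members lay between −0.17 and 0.08.

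The mRNA changes of MRPL37, MRPS15 and MRPL9 seen in Tm were also present in Tm + ISRIB, measured against the same untreated libraries. Over all tested transcripts, shorter ones tended to rise in mRNA. The Spearman correlation of the mRNA change with counted codons was −0.25 in Tm and −0.27 in Tm + ISRIB, against untreated. In efficiency it was 0.23 and 0.35. Among the 10 members it was 0.13 and −0.10 in mRNA, and −0.25 and 0.14 in efficiency. MRPL37 has 404 counted codons, MRPS15 238 and MRPL9, which fell, 248, against a median of 461 over all. A role of length was not tested. MRPL37 mRNA was 293 and 279 CPM in Tm + ISRIB (0.31 ± 0.07, adjusted p = 0.0365), MRPS15 was 156 and 153 CPM (0.42 ± 0.09, adjusted p = 0.0306) and MRPL9 was 87.2 and 80.8 CPM (−0.24 ± 0.07, adjusted p = 0.0678). These were 3 of 10 members, against 8.68% up and 5.61% down, 14.3% together, over all. Each of the 3 calls ended without either Tm + ISRIB replicate or without untreated replicate b, with adjusted p of up to 0.363, and those of MRPL37 and MRPL9 also without untreated replicate a, that of MRPL9 with DESeq2 too. Over all alternatives the changes kept their direction and ran from 0.26 to 0.34 for MRPL37, from 0.32 to 0.53 for MRPS15 and from −0.29 to −0.18 for MRPL9, and the fits without 1 replicate called 0% to 2.89% of all transcripts. Efficiency stayed below untreated for MRPL37 (0.787 and 0.782, change −0.32 ± 0.10, adjusted p = 0.0682) and MRPS15 (0.756 and 0.743, change −0.41 ± 0.12, adjusted p = 0.0494), 2 of 10 members, against 3.65% up and 5.27% down, 8.92% together, over all. Their RPF levels at that point overlapped the untreated ones, and their mRNA levels did not. The MRPL37 efficiency call ended with total counts and without any 1 of these 4 lysates. That of MRPS15 ended without untreated replicate b or either Tm + ISRIB replicate. Over all alternatives these efficiency changes ran from −0.36 to −0.27 for MRPL37 and from −0.52 to −0.32 for MRPS15. With ISRIB alone, efficiency was also below both untreated lysates, at 0.761 and 0.889 for MRPL37 and 0.723 and 0.911 for MRPS15. Neither of those changes with ISRIB alone passed the FDR.

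**Figure D3:**
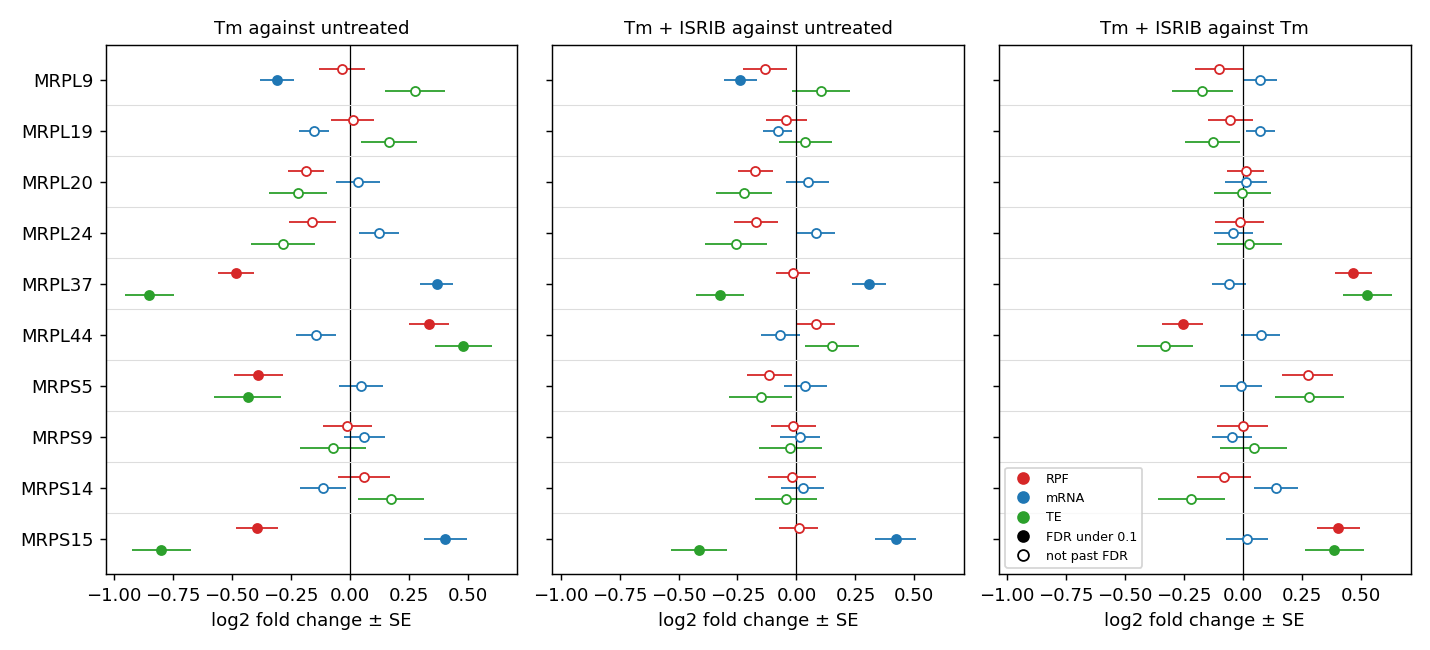
Log2 fold changes ± SE (edgeR, n = 2 per treatment) of the 10 members in RPFs, mRNA and translational efficiency (TE) for 3 comparisons; filled symbols passed an FDR of 0.1 and open ones did not. Under Tm the RPF and TE symbols of MRPL37 and MRPS15 lie left of 0 and their mRNA right of it, and in Tm + ISRIB against untreated their RPF symbols lie at 0 with mRNA still to the right.

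ISRIB alone against untreated gives the effect of the compound in unstressed cells. In RPFs 0 members passed by edgeR or DESeq2, against 0.00912% of all transcripts with edgeR, 0 members and 4.06% of all had an unadjusted p under 0.05, and the changes lay between −0.14 and 0.16. MRPL44 had the highest of them, with 132 and 126 CPM against 111.5 and 119.5 (0.16 ± 0.08), and MRPL20 the lowest, with 186 and 203 CPM against 219 and 210.2 (−0.14 ± 0.08). In mRNA 0 members passed by edgeR or DESeq2, against 0.902% of all transcripts with edgeR, and 5 of 10 members and 14.3% of all had an unadjusted p under 0.05. MRPL9 had 80.6 and 78.8 CPM (−0.31 ± 0.07, adjusted p = 0.109) and MRPL37 had 287 and 254 CPM (0.23 ± 0.07, adjusted p = 0.200). These counts depended on the ISRIB replicates: 5 members and 6.93% of all transcripts were called without replicate a, and 3 members and 8.03% of all without replicate b. Without replicate a MRPL37 mRNA changed by 0.11 (adjusted p = 0.356), and without replicate b by 0.31 (adjusted p = 0.0230). MRPL9 mRNA changed by −0.35 (adjusted p = 0.0485) without replicate a and by −0.30 (adjusted p = 0.0641) without replicate b. In efficiency 0 members passed by edgeR or DESeq2, against 0.210% of all transcripts with edgeR, and 5 members and 8.79% of all had an unadjusted p under 0.05. Without ISRIB replicate a, and likewise without b, 0 members passed in efficiency, against 0.206% and 0.673% of all transcripts.

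In Tm + ISRIB against ISRIB, which gives the effect of Tm in the presence of ISRIB, 0 members passed in RPFs, mRNA or efficiency by edgeR or DESeq2, against 1.23%, 0% and 1.11% of all transcripts with edgeR. An unadjusted p under 0.05 was seen for 1, 3 and 2 members, against 11%, 15.4% and 14.3% of all transcripts, and DESeq2 called 86 of all transcripts in mRNA. Without ISRIB replicate a, 6 members and 29.8% of all transcripts passed in mRNA, and 2 members and 12.3% of all in efficiency. Without ISRIB replicate b, 0 members and 0% of all transcripts passed in either. The difference between the effect of Tm with and without ISRIB was tested as an interaction. In RPFs it passed for MRPL37 (0.50 ± 0.11, adjusted p = 0.00729), MRPS15 (0.50 ± 0.12, adjusted p = 0.0224) and MRPL44 (−0.41 ± 0.12, adjusted p = 0.0525), against 3.97% up and 2.74% down, 6.71% together, over all. The call of MRPL37 held in every alternative. That of MRPS15 ended without Tm + ISRIB replicate a or ISRIB replicate a (adjusted p up to 0.127), and that of MRPL44 without Tm replicate b or any Tm + ISRIB or ISRIB replicate (up to 0.234). MRPS5 had a difference of 0.36 ± 0.15 (adjusted p = 0.169).

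The interaction in efficiency passed for MRPL37 (0.79 ± 0.15, adjusted p = 0.0269), MRPS15 (0.69 ± 0.17, adjusted p = 0.0757) and MRPL44 (−0.66 ± 0.17, adjusted p = 0.0778), against 0.985% up and 0.428% down, 1.41% together, over all. With each lysate as a block, the difference of MRPL37 was 0.78 (adjusted p = 0.0469), that of MRPS15 0.69 (adjusted p = 0.1004) and that of MRPL44 −0.67 (adjusted p = 0.108). The MRPL37 call ended without either Tm replicate or Tm + ISRIB replicate a (adjusted p up to 0.278). Without any 1 of the Tm or Tm + ISRIB replicates those of MRPS15 and MRPL44 ended, as did that of MRPS15 without untreated replicate b or ISRIB replicate a and that of MRPL44 without either untreated replicate (adjusted p up to 0.438). In mRNA the interaction passed for 0 members and 0 transcripts by edgeR, with 4 members and 937 transcripts (8.54%) at an unadjusted p under 0.05, and for 0 members and 16 transcripts by DESeq2. Without ISRIB replicate a, 2 members and 1.30% of all transcripts passed the mRNA interaction, and 1 member and 2.52% of all without replicate b. In efficiency 2 members and 1.4% of all passed without ISRIB replicate a, and 3 members and 3.12% of all without replicate b.

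A further 10 mitochondrial ribosome proteins had a symbol in the readable part of the study's source table, and all were tested. Only 1888 of the 19044 joined transcripts had a symbol, so other subunits may stand unnamed among the rest. Under Tm, 1 of them rose in RPFs, MRPL35 (0.33 ± 0.11, adjusted p = 0.0649), 0 fell, and the median was 0.05, against 6.16% up and 7.53% down over all. In that comparison DESeq2 called 0 of the 10. With edgeR 3 had an unadjusted p under 0.05, 0 of them lower, against 23.4% of all tested transcripts. In Tm + ISRIB against Tm, 0 rose and 4 fell, namely MRPL33 (−0.40 ± 0.15, adjusted p = 0.0896), MRPL35 (−0.42 ± 0.12, adjusted p = 0.0199), MRPS21 (−0.41 ± 0.10, adjusted p = 0.0110) and AURKAIP1 (−0.27 ± 0.09, adjusted p = 0.0420). Over all tested transcripts 9.44% rose and 8.10% fell in that comparison. The median of the 10 was −0.23 there, against −0.01 for the members and 0.01 over all. MRPL35 also had a different effect of Tm with ISRIB in RPFs (−0.54 ± 0.16, adjusted p = 0.0568). AURKAIP1 was lower in RPFs in Tm + ISRIB than in untreated cells (−0.29 ± 0.08, adjusted p = 0.0912). MRPL30 mRNA rose in Tm (0.40 ± 0.10, adjusted p = 0.0508) and in Tm + ISRIB (0.41 ± 0.09, adjusted p = 0.0364). Efficiency in Tm + ISRIB fell against untreated for MRPL30 (−0.51 ± 0.17), MRPS21 (−0.44 ± 0.14) and MRPS25 (−0.50 ± 0.14), with adjusted p from 0.0504 to 0.0918, and against Tm for MRPL35 (−0.50 ± 0.15, adjusted p = 0.0716). Over all, 5.27% fell in efficiency against untreated and 2.37% against Tm.

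Beside them stand 3 further lists. Over all tested transcripts 6.16% rose and 7.53% fell in RPFs under Tm, and 9.44% rose and 8.10% fell in Tm + ISRIB against Tm. An unadjusted p under 0.05 with edgeR was seen for 23.4% of all in RPFs under Tm. The RPF levels of 13 cytosolic ribosomal proteins, components of the ribosomes that translate the members, all fell under Tm, with a median of −0.48 and a range from −0.82 to −0.35. All 13 rose in Tm + ISRIB against Tm (median 0.54), measured against the same Tm libraries. MRPL37, MRPS15 and MRPS5 had changes under Tm within the range of that list, and the other 7 members lay above it. Of 13 mitochondrial translation and RNA factors, such as mitochondrial aminoacyl-tRNA synthetases, 4 rose and 0 fell under Tm with edgeR (median 0.09), 6 had an unadjusted p under 0.05, 0 of them lower, and DESeq2 called 1 higher and 0 lower. Of 12 nuclear-encoded respiratory chain subunits, which assemble with the products of the mitochondrial ribosome, 0 passed under Tm in RPFs with edgeR or DESeq2 and 3 had an unadjusted p under 0.05, with changes from −0.25 to 0.17 and a median of −0.05. The difference between these lists and the members was not tested.

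**Figure D4:**
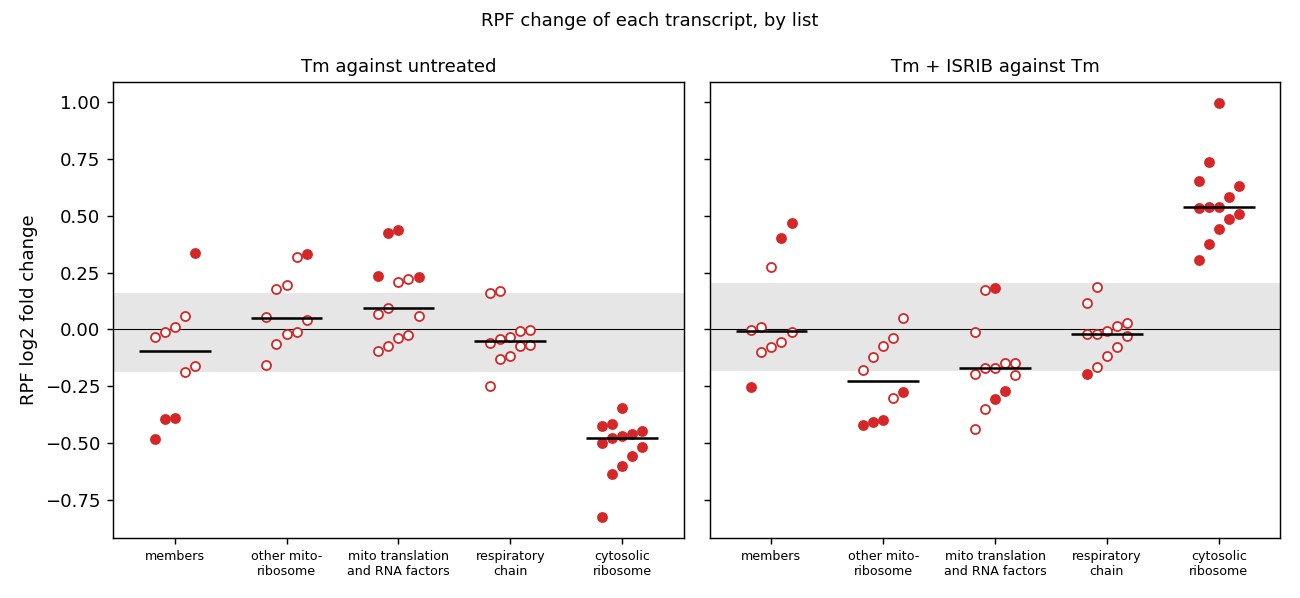
RPF log2 fold changes of each tested transcript in 5 lists for Tm against untreated (left) and Tm + ISRIB against Tm (right), which share the Tm libraries; filled points passed an FDR of 0.1, bars are medians, and the grey band spans the lower to the upper quartile of all tested transcripts. Under Tm the members spread from −0.48 to 0.34, whereas the 13 cytosolic ribosomal proteins all lie below 0.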

How the data were processed

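The study's authors deposited raw read counts, 1 value per UCSC transcript and library over its coding sequence, with the number of codons counted, and neither scaled them nor pooled the replicates. The submitters' processing notes name hg19, CASAVA 1.8, Bowtie 1.0.0 and TopHat2 2.0.10 and 2.0.7. Reads matching several isoforms or gene copies, pseudogenes included, were assigned in that counting. Counting left out 19 codons of each annotated protein matched here. Identifiers were joined without their version where the counted length was equal, and 19044 of 21520 Ribo-Seq transcripts remained. Symbols come from the readable part of the study's source table, and 1888 of the joined transcripts have one. No column of values was left unused.

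Groups follow the labels. The filter (filterByExpr, minimum 10 counts, in Ribo-Seq as well as mRNA-Seq) retained 10970 transcripts. RPFs and mRNA were each modelled across the 8 libraries of the assay, and efficiency across all 16 as the interaction of assay and treatment, by edgeR's quasi-likelihood test (edgeR 4.0.16 in R 4.3.3) with TMM factors and no replicate block. Adjusted p-values are Benjamini-Hochberg values over all tested transcripts within each of 6 comparisons and 3 quantities, and the FDR of 0.1 is the study's. SE is the size of the log2 fold change over the square root of F. The common biological coefficient of variation was 5.65% in RPFs and 6.69% in mRNA. An exact permutation test of 2 against 2 values cannot give a p below 0.33 and was not used. The study calls its 2 replicates biological, but nothing says that they came from separate cultures, and p-values measure the spread between these libraries. PCR copies count as separate fragments.

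Alternatives were RLE size factors, total counts, DESeq2 1.42.0, no filter, only the treatments compared, the replicate letter or the lysate as a block, and leaving out each replicate, where a lone library is assumed to vary like the others. The fits were tested on simulated data. Pairing of assays by lysate comes from the methods and the shared letter. The members and lists were chosen with earlier results of these data known. By the rule for names, all 10 members, further mitochondrial ribosome proteins that passed in a comparison, and ATF4 are given by name. Start regions were matched to GENCODE v29 by symbol and coding length (1738 of 1834 named tested transcripts). Transcript starts come from RefSeq (GRCh38.p14).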

Additional observations from a re-analysis of the deposited data

Results flagged for a closer look

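The effect of Tm differed between cells with and without ISRIB, by the interaction test, in 6 cases, none of which is independent of the values in the comparisons above, since both use the same libraries. In RPFs the Tm effect with ISRIB minus that without was 0.50 for MRPL37 (adjusted p = 0.00729), 0.50 for MRPS15 (adjusted p = 0.0224) and −0.41 for MRPL44 (adjusted p = 0.0525). In efficiency it was 0.79 for MRPL37 (adjusted p = 0.0269), 0.69 for MRPS15 (adjusted p = 0.0757) and −0.66 for MRPL44 (adjusted p = 0.0778). With 2 samples per group, no single library could be examined for standing apart from its group.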

How the results depend on the processing

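Leaving out each replicate in turn gave 0 to 5 members called in mRNA for ISRIB against untreated, 0 to 1 for Tm and for Tm + ISRIB against untreated, 0 to 6 for Tm + ISRIB against ISRIB and 0 to 2 for the interaction of Tm and ISRIB. In RPFs it gave 1 to 3 for the interaction. In efficiency it gave 0 to 3 for the interaction, 0 to 2 for Tm + ISRIB against ISRIB, 0 to 1 for Tm + ISRIB against Tm and 0 to 1 for Tm + ISRIB against untreated. The share of all transcripts called moved over the same fits, in mRNA from 0% to 8.03%, 0% to 1.81%, 0% to 2.89%, 0% to 29.8% and 0% to 2.52% in the order above, in RPFs from 1.97% to 10.4%, and in efficiency from 0.0179% to 3.12%, 0% to 12.3%, 0.412% to 1.70% and 0.671% to 5.91%. In mRNA for ISRIB against untreated, no filter on low counts and total counts each gave 1 member in place of 0. These fits called 1.68% of 14187 transcripts and 1.06% of 10970, in place of 0.902% of 10970. In efficiency, 1 member in place of 2 was called for Tm + ISRIB against Tm with DESeq2, without the filter and with each lysate as a replicate block, and for Tm + ISRIB against untreated with total counts. For Tm + ISRIB against Tm, DESeq2 called 404 of the 6078 transcripts to which it gave an adjusted p (6.65%). Without the filter 570 of 14187 were called (4.02%), and with the lysate block 525 of 10970 (4.79%), in place of 651 of 10970 (5.93%). The last fit called 9.54% of all tested transcripts, in place of 8.92%. The lysate block also left 1 of the 3 efficiency interactions, with 1.26% of all transcripts called in place of 1.41%. The replicate letter as a block changed no call of a member named above. Same-letter libraries of an assay had correlations of deviations from −0.20 to 0.44, of which 3 of 12 were over 0.1, and those of a lysate from −0.06 to 0.05.

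Without TMM factors, efficiency changes in Tm against untreated shifted by 0.10 for every transcript. Untreated efficiency was then 1.15 for MRPS14 and 0.744 for MRPS9. RPF changes near 0 changed sign: under Tm, MRPL9 was 0.0254 with total counts and MRPS9 was 0.00200 with DESeq2, 0.00230 with RLE factors and 0.0469 with total counts. Over the fits that left out 1 replicate, MRPL9 ran from −0.13 to 0.0774, MRPL19 from −0.0805 to 0.11, MRPS9 from −0.0347 to 0.0113 and MRPS5 mRNA from −0.0235 to 0.12. In Tm + ISRIB against untreated, the RPF change of MRPL37 ran from −0.0616 to 0.0231 and that of MRPS15 from −0.0232 to 0.0359. DESeq2 called fewer of all transcripts. For Tm against untreated it called 744 against 1502 in RPFs, 694 against 1223 in mRNA and 1204 against 1758 in efficiency. In RPFs for Tm + ISRIB against Tm it called 1002 against 1925. In the same order, it gave an adjusted p to only 6929, 9056, 9481 and 8418 transcripts. The shares called among those were 10.7%, 7.66%, 12.7% and 11.9%, against 13.7%, 11.1%, 16% and 17.5% of 10970 with edgeR.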
